A study of Mus musculus with 2 samples.

Results

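The genes described here are 10 mouse genes induced by interferon gamma, matched by symbol among the 34290 genes listed for both libraries. They are the guanylate binding protein genes Gbp2, Gbp3, Gbp4, Gbp5 and Gbp7, the immunity-related GTPase genes Irgm1, Igtp, Iigp1 and Ifi47, and the transcription factor gene Irf1. All 10 were found. Single cells were taken from tumours grown for 21 days in untreated mice from engrafted MC38 cells, a mouse colorectal carcinoma line. In the TMEM16F KO library the engrafted cells lacked TMEM16F, a phospholipid scramblase encoded by Ano6. In the vector control library they carried the control vector. Each group is 1 library of tumour tissue made with 10x 3′ chemistry. The number, strain, sex and age of the mice, and whether the knockout line is 1 clone, are not given in the labels. The series description places the deletion in the engrafted line, and names no allele for the host animals. Epithelial and tumour markers were nearly absent, with 6 of them summed at 18.5 CPM (counts of UMIs scaled to the same total in each set of cells) for TMEM16F KO against 30.1 CPM for vector control, so the values below describe mainly immune cells.

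Interferon gamma is released mainly by activated T cells and NK cells and binds the receptor chains encoded by Ifngr1 and Ifngr2. The receptor signals through the kinases JAK1 and JAK2 to genes that carry the palindromic GAS element, Irf1 among them. IRF1 in turn binds the interferon-stimulated response element (ISRE) of many other genes. Guanylate binding proteins and immunity-related GTPases are large GTPases that assemble on pathogen vacuoles and bacterial membranes. Irgm1 and Igtp (Irgm3) encode regulatory GTPases that sit on the cell's own membranes and hold effector GTPases such as Iigp1 (Irga6) in check, GBP2 and GBP5 act in inflammasome activation, and Ifi47 (Irg47, Irgd) encodes a further effector-type GTPase. In tumours these genes are commonly read as a sign that cells have received interferon.

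Positions are those of GENCODE M21 on GRCm38. Gbp5 (ENSMUSG00000105504, chr3:142493978-142522344), Gbp7 (ENSMUSG00000040253, chr3:142530342-142550149), Gbp3 (ENSMUSG00000028268, chr3:142560026-142573209) and Gbp2 (ENSMUSG00000028270, chr3:142620602-142638008) stand side by side on the plus strand. Gbp4 (ENSMUSG00000079363) lies apart on the minus strand at chr5:105115767-105139586. Irgm1 (ENSMUSG00000046879, chr11:48861968-48871683, minus strand), Ifi47 (ENSMUSG00000078920, chr11:49076587-49096974), Irf1 (ENSMUSG00000018899, chr11:53770014-53778374) and Igtp (ENSMUSG00000078853, chr11:58199556-58207591) share a chromosome. Iigp1 has the identifier ENSMUSG00000054072. In the annotation Gbp4 overlaps Gbp8 and Gbp9, Igtp overlaps Irgm2, Ifi47 overlaps Olfr56 and Gbp7 overlaps Gm43802, each on the same strand. The families are also close in sequence, so the split of reads between such neighbours and paralogs is uncertain.

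The promoters of these genes were searched for the elements named above. RefSeq promoter sequences on GRCm38.p6 were used for 8 of the 10 genes, and no promoter of Gbp4 or Iigp1 was searched. The 250 bases before the start were searched on both strands for a GAS core, TTCNNNGAA, and an ISRE core, GAAA and GAAA with any 2 bases between them. An ISRE core was found for 6 of the 8 genes (Gbp2, Gbp3, Gbp5, Gbp7, Irgm1 and Igtp). Counted by promoter, it was in 6 of the 10 of these genes, beside 2.98% of all 32851 promoters. A GAS core was found for 4 of the 8 genes (Gbp5, Gbp7, Igtp and Irf1), and in 4 of the 10 promoters, beside 7.02% of all promoters. Neither was found for Ifi47, nor in a further promoter each of Gbp3 and Irf1. The RefSeq start of Gbp5, chr3:142496934, lies inside the GENCODE M21 gene, which starts at 142493978. The bases searched for Gbp5 thus lie within that gene. For the other 3 genes with a GAS core, the RefSeq start is at or within a few bases of the GENCODE M21 start. They are Irf1 (chr11:53769894-53770013), Igtp (chr11:58199436-58199555) and Gbp7 (chr3:142530216-142530335). Their 120 bases before the start, on the plus strand, are given with the matches in capitals. Igtp and Gbp7 also hold an ISRE core there, and Irf1 does not.
Irf1: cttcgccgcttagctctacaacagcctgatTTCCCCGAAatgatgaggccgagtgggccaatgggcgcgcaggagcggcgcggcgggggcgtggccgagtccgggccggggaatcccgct
Igtp: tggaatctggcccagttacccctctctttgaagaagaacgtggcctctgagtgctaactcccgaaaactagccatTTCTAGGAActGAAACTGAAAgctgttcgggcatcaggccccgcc
Gbp7: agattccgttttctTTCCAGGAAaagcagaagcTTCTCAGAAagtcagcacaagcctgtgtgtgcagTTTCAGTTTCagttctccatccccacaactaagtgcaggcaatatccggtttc
In Igtp the GAS and ISRE matches do not overlap and together span bases 45 to 25 before the start. The ISRE core of Gbp7, at bases 53 to 44, reads on the opposite strand, as do those of Gbp2, Gbp3 and Gbp5. Windows of 30 bases around further ISRE matches, shown to compare them, read as follows.
Gbp2 (chr3:142620594-142620623, plus strand): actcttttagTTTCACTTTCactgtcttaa
Gbp3 (chr3:142559989-142560018, plus strand): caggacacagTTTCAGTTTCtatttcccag
Gbp5 (chr3:142496759-142496788, plus strand): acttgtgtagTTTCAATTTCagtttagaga
Irgm1 (chr11:48871425-48871454, minus strand): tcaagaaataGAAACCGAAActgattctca
Gbp3 and Irgm1 each hold another ISRE match that overlaps the one shown. A match is a description of the letters and shows no binding.

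The TMEM16F KO library held 5993 cell barcodes and 49777630 UMIs and the vector control library 5253 barcodes and 46338994 UMIs, a UMI standing for 1 captured transcript. Of these 11246 barcodes, 10716 were kept, where the series description speaks of 10782 cells. The median kept cell had 5995 UMIs for TMEM16F KO against 6019.5 for vector control, and 14.6% and 20.5% of cells had under 2000. The libraries shared 10 barcodes. Mitochondrial genes gave a median of 0.0885% and 0.0710% of a cell's UMIs, so they say little of RNA quality. Ano6 stood at 33.3 CPM for TMEM16F KO against 28.7 CPM for vector control. Its 3′ reads may lie outside the deleted part and few cells carry tumour markers, so this checks nothing about the labels. Among 12 genes tied to tissue dissociation, 1 was past 1.5-fold higher, beside 5.49% of all genes, and 2 past it lower, beside 6.57%. The heat shock gene Hspa1b was at 186 CPM in TMEM16F KO and 380 CPM in vector control, and Hspa1a at 163 and 327 CPM, while the immediate early gene Egr1 was at 229 and 151 CPM. Hspa1a and Hspa1b are nearly identical copies. The part of such handling differences in the results was not tested. With 1 library a group there is no replicate and no test. Every interval given is a 95% interval of counting error alone, and mouse, tumour and library preparation cannot be told apart from the knockout.

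Cells were put into classes by their marker UMIs. The classes, with cells in TMEM16F KO and then in vector control, were CD8 T-like (969 and 713 cells), CD4 T-like (100 and 74), Treg-like (152 and 113), other T-like (408 and 231), NK-like (232 and 112), C1q-high macrophage-like (1826 and 2009), C1q-low phagocyte-like (521 and 384) and DC-like cells (131 and 107). Stroma-like (46 and 61) and neutrophil-like cells (62 and 23) were too few in 1 library for a ratio, and 1241 and 1201 cells stayed unassigned. The defining T cell markers summed to 7548 and 6856 CPM in CD8 T-like cells and to 53.2 and 45.1 CPM in C1q-high macrophage-like cells. The C1q genes ran the other way, at 567 and 390 CPM in CD8 T-like cells and at 12224 and 12714 CPM in C1q-high macrophage-like cells.

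Over all kept cells the 10 genes together gave 48308 UMIs in the TMEM16F KO library, or 1053 CPM, against 34244 UMIs or 796 CPM for vector control. That is a ratio of 1.32 (1.30 to 1.34). Irf1 was the most abundant of them, at 237 CPM in TMEM16F KO and 175 CPM in vector control, and stood 1.35-fold higher. Gbp2 followed at 217 and 161 CPM, 1.34-fold higher. Among the immunity-related GTPases the ratios were 1.46 for Igtp (74.7 and 51.3 CPM), 1.41 for Ifi47 (136 and 96.5 CPM), 1.30 for Iigp1 (121 and 93.2 CPM) and 1.13 for Irgm1 (55.5 and 49.1 CPM). Among the other guanylate binding proteins they ran from 1.12 for Gbp3 (40.9 and 36.4 CPM) to 1.36 for Gbp4 (45.3 and 33.3 CPM). All 10 counting intervals lay above 1, as did those of 25.1% of the 16051 genes with at least 20 UMIs. None reached 1.5-fold, a size at which 5.49% of genes were higher and 6.57% lower. The median log2 ratio of the 10 genes was 0.40, against 0.02 for all genes. With every class given the same weight in both libraries, all 10 ratios were again above 1, from 1.13 for Gbp3 to 1.46 for Igtp.

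**Figure D1:**
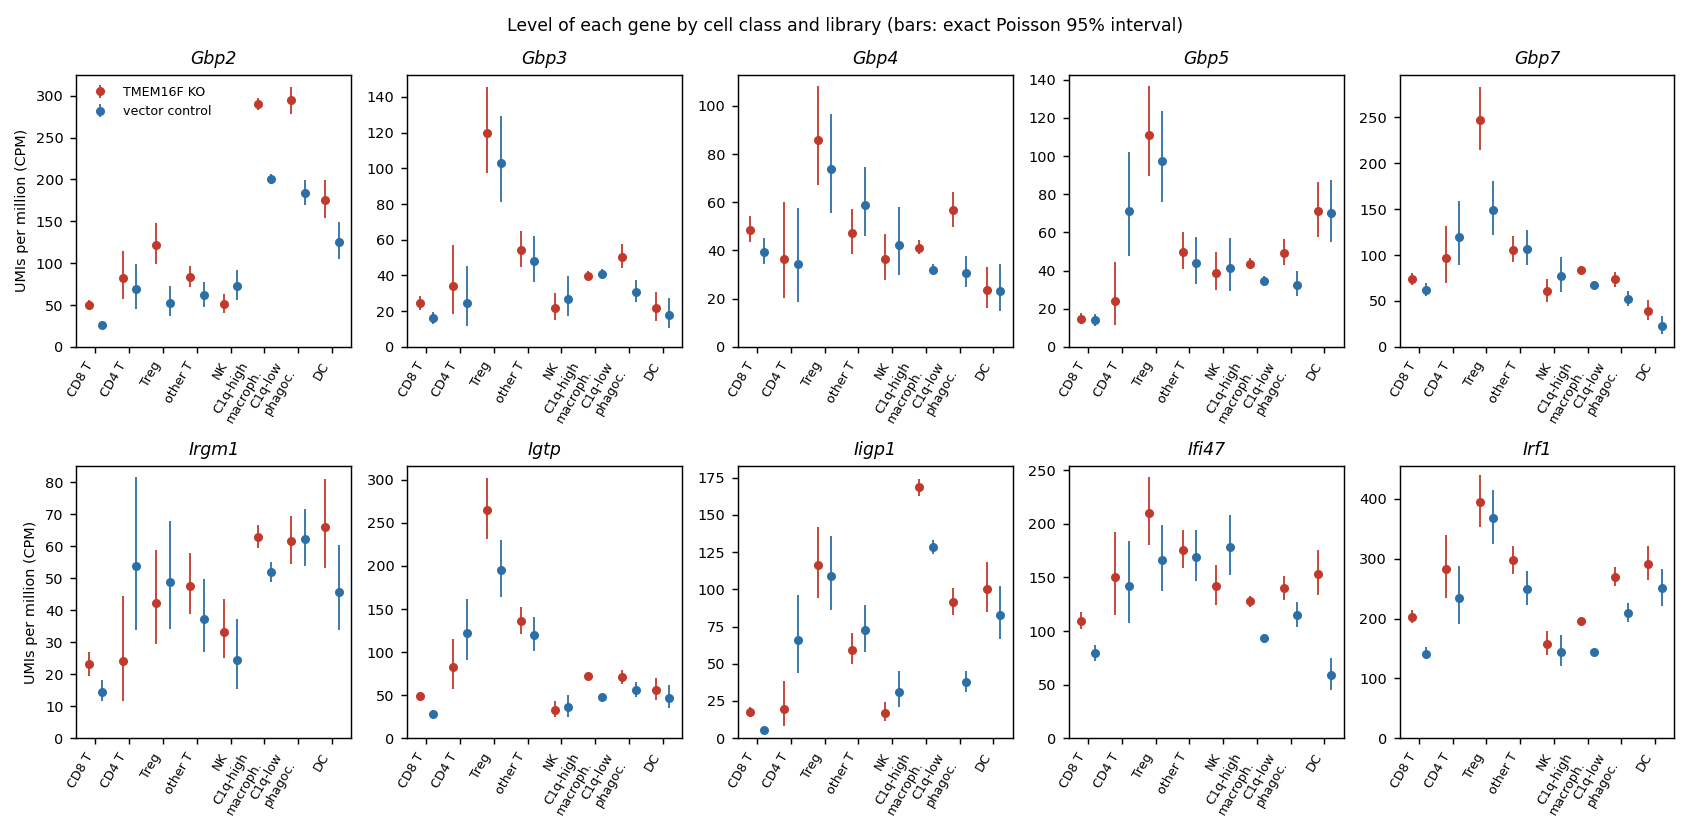
Level of each of the 10 genes in CPM (vertical axis, from 0, its own range in each panel) by cell class (horizontal axis), TMEM16F KO in red and vector control in blue, with exact Poisson 95% intervals. Treg-like cells are the highest class shown for Igtp in both libraries (265 and 195 CPM), and phagocytes for Gbp2.

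Levels differed widely between classes. Treg-like cells had the highest summed level of the compared classes in both libraries, 1714 CPM in TMEM16F KO and 1364 CPM in vector control. NK-like cells (592 and 674 CPM) and CD8 T-like cells (613 and 427 CPM) had the lowest. C1q-high macrophage-like cells, at 1125 and 841 CPM, held the largest share of the UMIs, 44.6% in TMEM16F KO and 51.8% in vector control. Stroma-like cells stood at 1850 and 834 CPM and neutrophil-like cells at 1712 and 1304 CPM, from few cells.

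Among the 8 compared classes, Irf1, Gbp3, Gbp4, Gbp5, Gbp7 and Igtp were all highest in Treg-like cells in both libraries. Igtp reached 265 CPM (231 to 302) in TMEM16F KO and 195 CPM (164 to 230) in vector control Treg-like cells, clear of the next compared class beyond counting error in both. Irf1 reached 394 CPM in TMEM16F KO and 368 CPM in vector control, again clear of the next compared class. The small stroma-like class of TMEM16F KO stood at 413 CPM (367 to 463) and the neutrophil-like class of vector control at 398 CPM (304 to 511), both overlapping the Treg-like level. Gbp3 in Treg-like cells was also clear of the next compared class in both libraries, at 120 and 103 CPM. For Gbp4, Gbp5 and Gbp7 the Treg-like interval was clear of the next compared class in the TMEM16F KO library, while in vector control it overlapped that class for each. In TMEM16F KO, neutrophil-like cells overlapped the Treg-like level for Gbp3 (74.4 CPM, 54.3 to 99.6) and Gbp5 (104 CPM, 80.1 to 133). Stroma-like cells did so for Gbp4 (57.4 CPM, 41.2 to 77.9). In vector control, neutrophil-like cells overlapped the Treg-like level for Igtp (111 CPM, 64.6 to 178) and Gbp4 (26.1 CPM, 7.11 to 66.8). The lowest class for Irf1 was NK-like in TMEM16F KO (158 CPM) and CD8 T-like in vector control (142 CPM).

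Gbp2 and Iigp1 had another order among the 8 compared classes. Both phagocyte classes led for Gbp2, and C1q-high macrophage-like cells alone led for Iigp1. Gbp2 stood at 294 CPM in C1q-low phagocyte-like and 290 CPM in C1q-high macrophage-like cells of TMEM16F KO, and at 184 and 201 CPM in those of vector control. These neighbours did not differ beyond counting error in either library, and both were clear of DC-like cells, at 176 CPM in TMEM16F KO and 126 CPM in vector control. Iigp1 was highest in C1q-high macrophage-like cells, at 168 CPM in TMEM16F KO and 128 CPM in vector control, followed by Treg-like cells at 116 and 109 CPM. The intervals of these classes overlapped in vector control but not in TMEM16F KO. C1q-low phagocyte-like cells stood lower for Iigp1, at 91.7 and 37.7 CPM. Outside the compared classes Iigp1 stood at 375 and 142 CPM in stroma-like and at 242 and 39.1 CPM in neutrophil-like cells, and Gbp2 at 318 and 154 CPM and at 493 and 352 CPM. Among the compared classes Iigp1 was lowest in NK-like cells of TMEM16F KO and in CD8 T-like cells of vector control (5.46 CPM). The 3 highest compared classes of Irgm1 overlapped in each library, led by DC-like cells in TMEM16F KO (66.0 CPM) and by C1q-low phagocyte-like cells in vector control (62.2 CPM), while stroma-like cells stood at 113 and 63.6 CPM and neutrophil-like cells at 94.3 and 124 CPM. Irgm1 was lowest in CD8 T-like cells in both libraries. Among the compared classes Ifi47 was led by Treg-like cells in TMEM16F KO (210 CPM) and by NK-like cells in vector control (178 CPM), each overlapping the next class. The order of the 8 classes had a Spearman correlation between the libraries of 0.929 for Igtp and 0.905 for Iigp1, and of 0.381 for Irgm1 and 0.429 for Ifi47. These values describe 8 points from 2 libraries.

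Across the 16 class-by-library levels, on the log2(CPM + 10) scale, the members fell into pairs that followed each other and pairs that did not. Gbp3 and Igtp had a Pearson r of 0.85, Gbp4 and Gbp7 and likewise Igtp and Irf1 0.84, and Irgm1 and Iigp1 0.82. Gbp2 went with Irgm1 (0.78) and Iigp1 (0.70) but not with Gbp7 (-0.19) or Gbp4 (-0.19), its own family. Of 11069 genes with at least 200 UMIs, those outside the list that lay close to the mean of the members included Zbp1, a sensor of Z-form nucleic acid, with r = 0.88. They also included M6pr and Med7 at 0.88 and 0.87, Irgm2, the gene of a further regulatory immunity-related GTPase, N4bp1 and Rapgef2 at 0.86 each, and Tnfrsf13b at 0.85. The points share their libraries, so these are descriptions only.

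C1q-high macrophage-like cells gave the most precise comparison. In them 9 of the 10 genes were higher in TMEM16F KO with intervals above 1, as for 21.1% of the 12905 genes with enough UMIs, and Gbp3 stood at 39.8 CPM in TMEM16F KO and 40.6 CPM in vector control (ratio 0.981, 0.888 to 1.08). The ratios above 1 were moderate. Igtp was 1.48-fold higher (71.7 and 48.3 CPM, 1.37 to 1.61), Gbp2 1.45-fold (290 and 201 CPM, 1.39 to 1.51), Ifi47 1.37-fold (128 and 93.2 CPM), Irf1 1.36-fold (196 and 144 CPM) and Iigp1 1.31-fold (168 and 128 CPM). Gbp4, Gbp5, Gbp7 and Irgm1 ran from 1.21 to 1.29. None passed 1.5-fold, where 5.82% of genes were higher and 4.86% lower. Averaged over cells instead of summed over UMIs, with no interval asked, 5 of the 10 passed 1.5-fold higher, as did 21.6% of all genes.

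The difference in these macrophages was larger in shallow cells. Cells of under 2000 UMIs (197 in TMEM16F KO and 410 in vector control) carried the 10 genes at 1895 and 736 CPM, a ratio of 2.57 (2.22 to 2.99). Cells of 2000 to 8000 UMIs stood at 1352 and 826 CPM (1.64, 1.55 to 1.73), and cells of 8000 UMIs or more at 1068 and 845 CPM (1.26, 1.24 to 1.29). The vector control level thus stayed between 736 and 845 CPM across depth, while the TMEM16F KO level was higher in shallower cells. A cluster of cells with a median of 1114 UMIs was uneven between the libraries, with 85 TMEM16F KO and 528 vector control cells, and so was another of deep cells, with 69 and 280. Their part in the ratio was not tested.

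**Figure D2:**
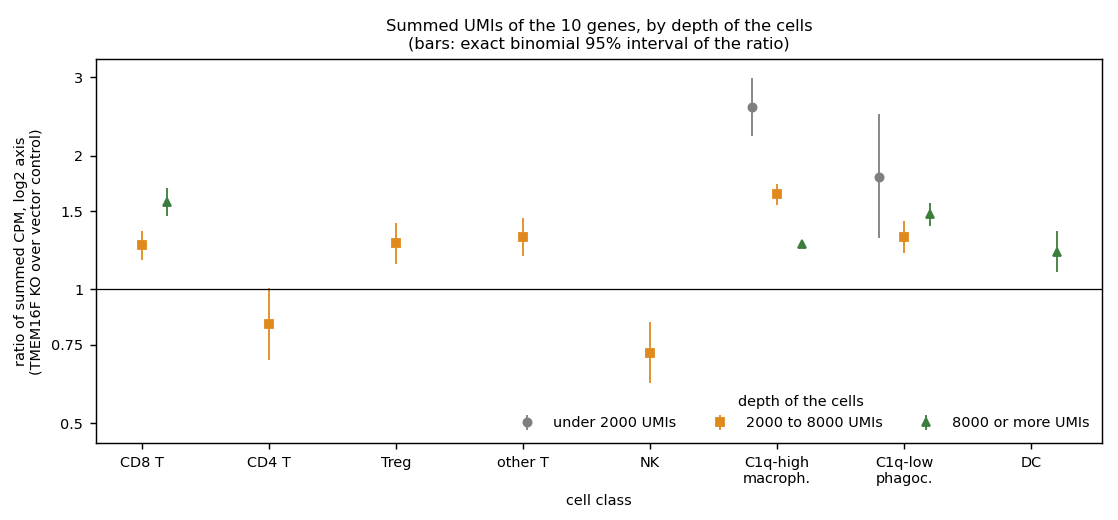
Ratio of the summed CPM of the 10 genes, TMEM16F KO over vector control (vertical axis, log2 scale), by cell class (horizontal axis) and depth of the cells (grey circles, under 2000 UMIs, orange squares, 2000 to 8000, green triangles, 8000 or more), with exact binomial 95% intervals, for bins of at least 50 cells in each library. In C1q-high macrophage-like cells the ratio is 2.57, 1.64 and 1.26 from shallow to deep cells, and in NK-like cells of 2000 to 8000 UMIs it is 0.721.

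C1q-low phagocyte-like cells, which carry the general phagocyte markers at low C1q, had ratios from 0.990 to 2.43. In them 5 of the 10 genes were past 1.5-fold higher in TMEM16F KO, beside 5.68% of all genes, and none was past it lower, beside 2.43%. Iigp1 had 403 UMIs in TMEM16F KO and 120 in vector control, 91.7 and 37.7 CPM, 2.43-fold higher (1.98 to 3.01). It kept between 2.19-fold and 2.51-fold under every alternative run. Classes from clusters were not among these, since no cluster was named C1q-low phagocyte-like. Gbp4 was 1.84-fold higher (56.6 and 30.8 CPM), Gbp3 1.64-fold (50.5 and 30.8 CPM), Gbp2 1.60-fold (294 and 184 CPM) and Gbp5 1.51-fold (49.4 and 32.7 CPM). Irgm1 stood at 61.7 and 62.2 CPM. Averaged over cells, Gbp2 came to 1.22-fold. With every ratio divided by the median of all genes the count was 4, beside 4.76% of all genes. Thinned to 2000 UMIs, Iigp1 was detected in 11.3% of these cells in TMEM16F KO and 5.45% in vector control, and Gbp2 in 35.0% and 25.2%.

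In DC-like cells all 10 ratios were above 1, as for 54.8% of genes, with 7 to 10 above it over the alternatives, and 2 genes passed 1.5-fold, beside 5.14% of all genes, and none passed it lower, beside 2.44%. Ifi47 stood at 153 CPM (134 to 175) in TMEM16F KO and 58.7 CPM (45.1 to 75.1) in vector control, 2.61-fold higher. With classes taken from clusters it came to 1.30-fold. Gbp7 had 55 and 24 UMIs, 39.4 and 22.4 CPM, 1.76-fold higher (1.07 to 2.98). A single TMEM16F KO cell held 141 of the 1393 member UMIs of its library in this class.

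CD8 T-like cells had low levels and ratios from 1.05 to 3.19. In them 5 of the 10 genes were past 1.5-fold higher in TMEM16F KO, beside 6.41% of all genes, and none was past it lower, beside 4.78%. Intervals of 9 of the 10 lay above 1, as for 15.1% of genes. Iigp1 had 118 UMIs in TMEM16F KO and 30 in vector control, 17.4 CPM (14.4 to 20.9) and 5.46 CPM (3.68 to 7.79), 3.19-fold higher (2.12 to 4.94). Its UMIs lay in a few cells: thinned to 2000 UMIs, it was detected in 3.36% of TMEM16F KO and 0.901% of vector control CD8 T-like cells. Gbp2 was 1.91-fold higher (49.9 and 26.2 CPM, 1.56 to 2.33), Igtp 1.72-fold (48.6 and 28.2 CPM), Irgm1 1.58-fold (23.0 and 14.6 CPM) and Gbp3 1.53-fold (24.5 and 16.0 CPM). Irf1, at 203 and 142 CPM, was 1.43-fold higher (1.31 to 1.57), and Ifi47 1.39-fold (110 and 79.1 CPM). Gbp5 stood at 14.8 and 14.0 CPM (1.05, 0.775 to 1.44). With the likely doublets kept in, Gbp2 came to 1.40-fold and the count past 1.5-fold to 3, beside 5.48% of all genes. With classes from clusters the count was 2, beside 5.78%, and Iigp1 came to 1.63-fold.

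Phagocyte RNA counted in lymphocyte barcodes moved with these results. The C1q genes in CD8 T-like cells reached 4.64% of the macrophage-like level in TMEM16F KO and 3.07% in vector control, and summed phagocyte markers were at 2344 and 1179 CPM. The 10 genes reached 54.5% and 50.8% of the macrophage-like level in the same cells, and Iigp1 alone 10.3% and 4.25%. Taking away the macrophage-like level at the C1q share left a summed ratio of 1.40 in CD8 T-like cells, against 1.44 before. Iigp1 was left with 9.61 CPM in TMEM16F KO and 1.51 CPM in vector control. In the other lymphocyte classes the C1q share lay between 4.27% and 5.99% in TMEM16F KO and between 3.73% and 4.95% in vector control. The phagocyte marker gene Lyz2 reached 5.87% and 3.63% of the macrophage-like level in CD8 T-like cells, and taking away that share was not tested. No class of these tumours lacks the 10 genes, so C1qa and Lyz2 give the scale of background detection. Thinned alike, C1qa was found in 31.3% of TMEM16F KO and 22.7% of vector control CD8 T-like cells, and Lyz2 in 82.0% and 48.5%. Their median depths were 5604 and 6602 UMIs before thinning. Every member but Irf1 was detected in a smaller share of CD8 T-like cells than C1qa in both libraries, so those shares alone are not read as expression.

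**Figure D3:**
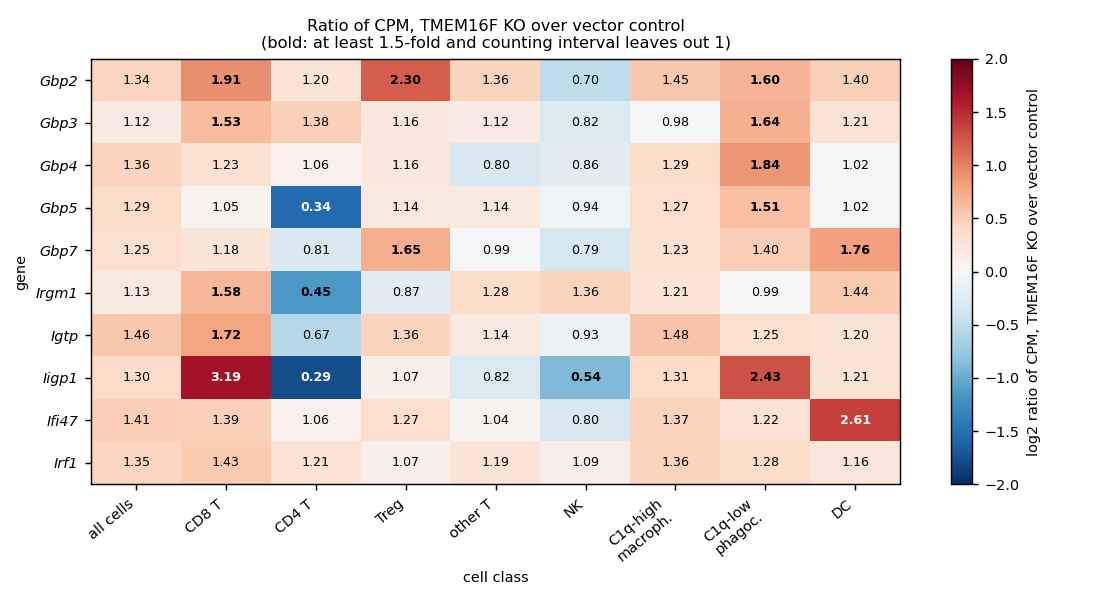
Ratio of CPM, TMEM16F KO over vector control, of each gene (rows) in all kept cells and in each class (columns), coloured by its log2 value, with ratios past 1.5-fold whose interval leaves out 1 in bold. CD8 T-like and C1q-low phagocyte-like cells have 5 bold ratios above 1 each, CD4 T-like cells 3 below 1.

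Treg-like cells, the class with the highest levels, differed in fewer genes. Gbp2 stood at 122 CPM (99.5 to 148) in TMEM16F KO and 53.0 CPM (37.5 to 72.7) in vector control, 2.30-fold higher (1.57 to 3.44), and remained at least 1.74-fold higher under each alternative run. Gbp7 was at 247 and 149 CPM, 1.65-fold higher (1.30 to 2.11). These 2 of 10 compare with 3.65% of all genes, and none was past the fold lower, beside 3.77%. Igtp was 1.36-fold higher (1.09 to 1.69), so 3 intervals lay above 1, as for 6.27% of genes, and the other 7 had intervals that held 1, among them Irf1 (1.07, 0.908 to 1.26) and Iigp1 (1.07, 0.783 to 1.46). Markers of other cells moved alongside: DC markers summed to 364 and 116 CPM in Treg-like cells and phagocyte markers to 3010 and 2227 CPM, and their part was not tested. The other T-like cells had T cell markers and either no CD8, CD4 or Foxp3 UMIs, or CD8 UMIs together with CD4 or Foxp3 UMIs. In them none of the 10 passed 1.5-fold, beside 5.8% of all genes higher and 3.4% lower. Irf1 was 1.19-fold higher there (297 and 250 CPM) and Gbp2 1.36-fold (83.8 and 61.5 CPM).

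CD4 T-like and NK-like cells went the other way for some genes, on few UMIs. In CD4 T-like cells 3 of the 10 were past 1.5-fold lower in TMEM16F KO, beside 5.51% of all genes, and none higher, beside 9.68%. Iigp1 had 8 UMIs in TMEM16F KO and 27 in vector control (0.293, 0.115 to 0.663), Gbp5 10 and 29 (0.341, 0.148 to 0.720) and Irgm1 10 and 22 (0.449, 0.190 to 0.989). Without the cell holding most UMIs of each gene in each library, these came to 0.324, 0.327 and 0.363. Irf1 stood at 283 and 235 CPM in the same cells (1.21, 0.912 to 1.60). Of the 12 dissociation genes 6 were past 1.5-fold higher and 3 lower in this class, beside 9.68% and 5.51% of all genes. Among them Egr1 was at 203 and 53.9 CPM, and the part of these genes was not tested. In NK-like cells 2 of the 10 ratios were above 1, as for 57.1% of genes, and none passed 1.5-fold higher, beside 4.93%. A single gene passed it lower, beside 2.79% of all genes: Iigp1, with 28 UMIs in each library but more UMIs in total behind those of TMEM16F KO (ratio of CPM 0.543, 0.310 to 0.952). Of the 28 vector control UMIs, 16 came from 1 cell, and without the top cell of each library the ratio was 1.09 (0.523 to 2.39). Gbp2 in NK-like cells, at 50.9 and 72.5 CPM (0.702, 0.502 to 0.986), had 20 of 65 vector control UMIs in 1 cell and came to 0.931 without the top cells. Ifi47, the most abundant GTPase gene in NK-like cells, was at 142 and 178 CPM (0.798, 0.650 to 0.982), and 0.829 (0.670 to 1.03) without the top cells. Under a stricter marker rule 8 of the 10 ratios in NK-like cells were above 1, in place of 2.

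Detection per cell, which single cells of high counts cannot carry, was not in 1 direction in every class. Thinned to 2000 UMIs, with shallower cells left out, at least 1 of the 10 genes was detected in 75.3% (73.2 to 77.4) of TMEM16F KO and 62.6% (60.2 to 65.0) of vector control C1q-high macrophage-like cells. The shares were 76.5% and 66.4% in C1q-low phagocyte-like, 77.8% and 61.4% in DC-like and 65.9% and 58.1% in CD8 T-like cells. In Treg-like cells they were 93.4% and 93.3%, in NK-like cells 68.2% and 64.1%, and in CD4 T-like cells 79.1% and 82.4%. The intervals of the libraries overlapped in these 3 classes and in DC-like cells. At least 3 of the 10 were detected in 57.4% of TMEM16F KO and 39.4% of vector control Treg-like cells, in 23.5% and 16.1% of C1q-high macrophage-like cells, and in 9.21% (7.42 to 11.3) and 2.85% (1.73 to 4.42) of CD8 T-like cells. The shares were 25.7% and 18.5% in C1q-low phagocyte-like, 22.2% and 13.9% in DC-like and 26.4% and 22.5% in other T-like cells. In NK-like cells they were 6.07% and 11.7% and in CD4 T-like cells 14.0% and 22.1%. For at least 3 genes the intervals of the libraries were apart in C1q-high macrophage-like and CD8 T-like cells. They overlapped in every other class given here. Thinning left out 197 and 410 C1q-high macrophage-like cells and 46 and 47 CD8 T-like cells. Unthinned, at least 3 genes were detected in 68.7% and 49.8% of C1q-high macrophage-like and 43.7% and 34.6% of CD8 T-like cells.

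**Figure D4:**
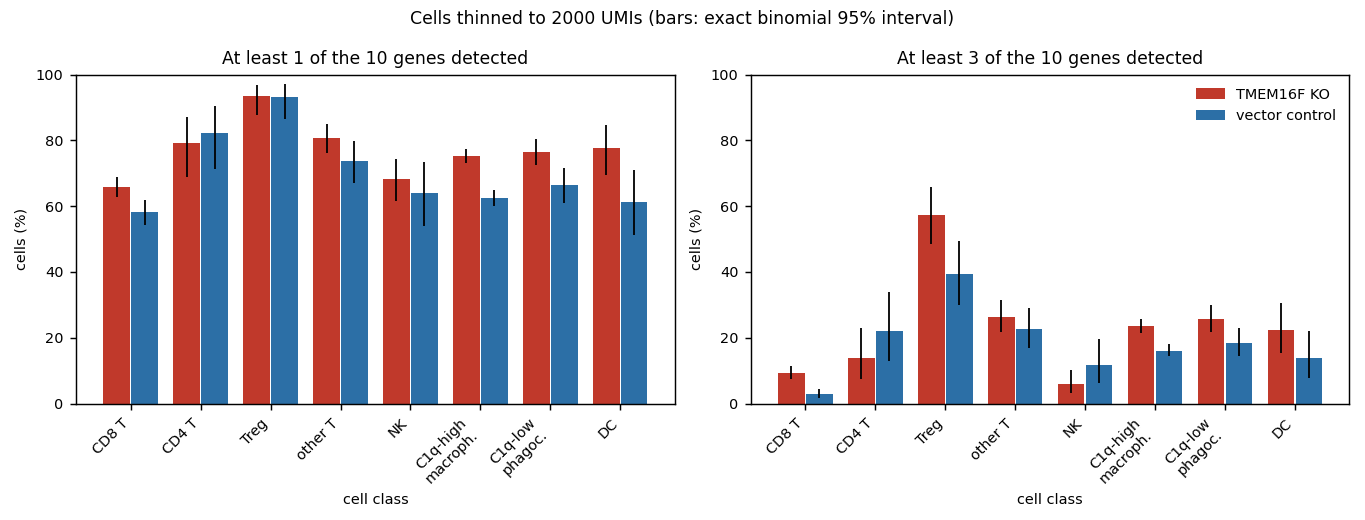
Share of cells, in percent, in which at least 1 (left) or at least 3 (right) of the 10 genes were detected after thinning to 2000 UMIs, by class, TMEM16F KO in red left of vector control in blue, with exact binomial 95% intervals. The intervals of the libraries are apart for at least 1 gene in C1q-high macrophage-like cells (75.3% and 62.6%) and overlap in NK-like cells (68.2% and 64.1%).

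The 10 genes were concentrated in some cells of each class. The tenth of C1q-high macrophage-like cells with the most member UMIs held 38.7% of them in TMEM16F KO and 48.8% in vector control. Per 10000 UMIs, these macrophages with at least 2000 UMIs ran from 0 to 111 member UMIs with a median of 8.35 in TMEM16F KO, and from 0 to 104 with a median of 4.99 in vector control. Treg-like cells had medians of 18.0 and 12.8. Cells with an Irf1 UMI more often had one of the other 9 genes in C1q-high macrophage-like cells: 74.7% against 64.6% of cells without an Irf1 UMI in TMEM16F KO, and 59.8% against 51.4% in vector control, thinned alike. In CD8 T-like cells the corresponding shares were 54.8% and 49.5% in TMEM16F KO, and 42.9% and 44.5% in vector control, within counting error.

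The ligand, receptor and signalling genes differed by class. Ifng over all kept cells stood at 247 CPM in TMEM16F KO and 207 CPM in vector control (1.19, 1.16 to 1.22), with most of its UMIs in CD8 T-like cells. Within CD8 T-like cells it was at 1111 and 1187 CPM (0.936, 0.906 to 0.968), within NK-like cells at 670 and 509 CPM (1.32, 1.18 to 1.47), and within other T-like cells at 551 and 761 CPM (0.724, 0.664 to 0.790). Ifngr1 was 1.43-fold higher in CD8 T-like cells (443 and 309 CPM) and 1.09-fold in C1q-high macrophage-like cells (124 and 113 CPM). Ifngr2, low in CD8 T-like cells, had 115 and 35 UMIs there (2.67, 1.81 to 4.01) and at 118 and 113 CPM in C1q-high macrophage-like cells (ratio 1.04). Over all kept cells Jak1 was 1.32-fold and Jak2 1.23-fold higher. Socs1, the feedback inhibitor of JAK kinases, was 1.41-fold higher over all kept cells (160 and 113 CPM) and 1.43-fold in C1q-high macrophage-like cells (109 and 76.6 CPM).

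The remaining interferon-inducible GTPase genes moved unevenly. Over all kept cells 3 of 9 tested were past 1.5-fold higher, beside 5.49% of all genes, and 1 lower, beside 6.57%. Gbp11 was at 1.72 and 0.767 CPM (2.25-fold) and Gbp6 at 9.05 and 5.49 CPM (1.65-fold), while Gbp2b, the mouse GBP1 gene, was at 0.720 CPM in TMEM16F KO and 3.21 CPM in vector control (0.224, 0.149 to 0.330), with 33 and 138 UMIs. In C1q-high macrophage-like cells 5 of 8 were higher, beside 5.82% of all genes, and again Gbp2b lower (0.940 and 4.36 CPM), beside 4.86%. Tgtp1 and Tgtp2 are nearly identical copies, so Tgtp1 (2.04 and 1.09 CPM there) is uncertain. In C1q-low phagocyte-like cells 2 of 5 were higher, beside 5.68% of all genes: Gbp6 2.30-fold and Gbp8 2.20-fold (44.4 and 20.1 CPM).

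Other targets of interferon gamma were mixed. Over all kept cells 2 of 14 were past 1.5-fold higher, beside 5.49% of all genes, and none lower, beside 6.57%. The 2 were Nos2, the inducible nitric oxide synthase gene (49.3 and 23.6 CPM, 2.09-fold), and Cd274, which encodes the checkpoint ligand PD-L1 (219 and 134 CPM, 1.63-fold). The same 2 of 14 passed in C1q-high macrophage-like cells, at 2.15-fold and 1.81-fold, beside 5.82% of all genes higher. In NK-like cells 1 of 12 passed, lower, beside 2.79% of all genes: the chemokine gene Cxcl9 (78.1 and 179 CPM, 0.435, 0.343 to 0.552). Cxcl9 was higher in other T-like cells (159 and 61.5 CPM, 2.58-fold), and in C1q-high macrophage-like cells, which held most of its UMIs, it was at 895 and 1180 CPM (0.758, 0.744 to 0.773). Among genes listed as signalling inhibitors 1 of 6 passed over all kept cells, beside 5.49% of all genes higher. It was Usp18, a deconjugase of ISG15 (19.8 and 12.2 CPM, 1.62-fold). Among the other interferon regulatory factor genes 1 of 7 passed, beside the same 5.49%: Irf7 (78.2 and 51.1 CPM, 1.53-fold). Usp18 and Irf7 are counted again among the type I interferon stimulated genes below.

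Type I interferon stimulated genes, many of which also carry ISRE elements, had their largest counts past 1.5-fold in C1q-low phagocyte-like and DC-like cells. In C1q-low phagocyte-like cells 10 of 14 were higher, beside 5.68% of all genes. Among them Oasl1 was at 77.3 and 26.7 CPM (2.89-fold) and Ifi44 at 5.91 and 1.26 CPM on 26 and 4 UMIs. In DC-like cells 7 of 12 were higher, beside 5.14% of all genes. They were led by Ifit3 at 78.1 and 12.1 CPM (6.45-fold, 3.62 to 12.5) and Usp18 at 58.8 and 16.8 CPM (3.50-fold). Over all kept cells 4 of 14 were higher, beside 5.49% of all genes, and none lower, beside 6.57%. In CD4 T-like cells 2 of 7 were lower, beside 5.51% of all genes: Ifit1 (75.1 and 296 CPM, 0.253) and Isg15 (518 and 968 CPM, 0.536). There 1, Irf7, was higher on 31 and 10 UMIs, beside 9.68% of all genes. In NK-like cells none of 13 passed in either direction, beside 4.93% of all genes higher and 2.79% lower. Of the 13 ratios 4 were above 1, as for 57.1% of all genes.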

How the data were processed

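Single-cell libraries of MC38 tumours, 1 TMEM16F KO and 1 vector control, were read as deposited UMI counts. Per the file headers, the authors made these counts with Cell Ranger 8.0.0. The submitters' processing notes name the mm10 build and Seurat 3.1.1. No source used here gives the gene annotation. Counting overlapping or near-identical genes can split or drop reads, which moves levels of single paralogs.

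Cells needed 200 genes and less than 20% of UMIs from mitochondrial genes, which removed 18 in TMEM16F KO and 4 in vector control. Scrublet's automatic threshold called 0 doublets in each library, so the barcodes with the highest scores, at a rate that grows by 0.8% with each 1000 barcodes, were left out (287 and 221). Classes were named from marker UMIs of single cells, with thresholds adjusted after seeing the data. Near the limits, 55 of 1861 TMEM16F KO and 14 of 1243 vector control lymphocytes had 80 to 100 phagocyte marker UMIs per 10000. UMIs were summed per class and library and given as CPM, with exact Poisson 95% intervals, and as ratios with exact conditional binomial ones. Shares of cells have exact binomial intervals. All intervals cover counting error only. A gene with at least 20 UMIs was called at 1.5-fold with an interval leaving out 1. Classes of at least 50 cells in each library were compared. With 1 library a group no test was made.

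All 10 genes are named. Of the other lists at most 2 genes past the fold in each direction are named in a class, beside the ligand, receptor and signalling genes, of which 1 is not reported here. Cxcl9 in C1q-high macrophage-like cells was chosen after its values were seen. The members and lists were chosen with earlier results of these data known. The calculations were tested on simulated sums with Poisson counting error only. These hold no variation between cells or libraries, so they do not show how reliable the ratios are beyond counting error. Alternatives changed the cell filters, doublets, classes, scaling, fold and count minimum. Python 3.11.15, scanpy 1.11.5 and scipy 1.17.1 were used, with GENCODE M21 positions and RefSeq promoters.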

Additional observations from a re-analysis of the deposited data

Results flagged for a closer look

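For 5 of the 10 genes the TMEM16F KO to vector control ratio lay on opposite sides of 1 in different cell classes, each with a counting interval that left out 1. The share of all genes that meet the same rule was not counted, so 5 of the 10 is not read as particular to these genes. The difference between classes was not tested, since each library gives 1 value a class. Gbp2 had a ratio of 0.702 in NK-like and 2.3 in Treg-like cells. Gbp5 had 0.341 in CD4 T-like and 1.51 in C1q-low phagocyte-like cells. Irgm1 had 0.449 in CD4 T-like and 1.58 in CD8 T-like cells. Iigp1 had 0.293 in CD4 T-like and 0.543 in NK-like cells, against 3.19 in CD8 T-like cells. Ifi47 had 0.798 in NK-like and 2.61 in DC-like cells. The ratios below 1 in CD4 T-like cells rest on 8 to 10 UMIs in TMEM16F KO and 22 to 29 in vector control. The NK-like ratios of Gbp2 and Ifi47 came to 0.931 (0.636 to 1.38) and 0.829 (0.670 to 1.03) without the top cell of each library, and that of Iigp1 to 1.09 (0.523 to 2.39). Gbp2 in NK-like cells also came to 1.15, 1.33 and 1.51 under other alternatives.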

How the results depend on the processing

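Of 1190 ratios recomputed under an alternative, 1102 stayed inside their counting interval, 81 moved beyond it and 7 changed side of 1 after an interval that had left out 1. These 7 were in NK-like cells. A further 78, whose interval had held 1, also changed side, in several classes. Gbp2 and Iigp1 came to 1.15 and 1.43 without the 1% of cells with the most member UMIs, to 1.33 and 1.50 with classes from clusters, and to 1.51 and 5.08 under the stricter marker rule. Iigp1 came to 1.09 without its top cell in each library. The median log2 ratio of the 10 genes ranged from 0.38 to 0.59 in CD8 T-like, 0.32 to 0.60 in C1q-high macrophage-like, 0.50 to 0.64 in C1q-low phagocyte-like, 0.20 to 0.40 in DC-like, 0.16 to 0.27 in Treg-like and -0.42 to 0.13 in NK-like cells.

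Counts of the 10 genes past the fold that moved by over 1.5 times, or to or from 0, are given here, smaller moves are not, and the cause was not tested unless the setting itself changes the rule. With likely doublets kept in, 3 were higher in CD8 T-like (5.48% of all genes) and 1 in CD4 T-like cells (10.3%). Averaged over cells, with no interval, 3 were higher in all kept cells (14.3% of all genes), 2 in other T-like (15.8%) and 5 in C1q-high macrophage-like cells (21.6%), while 1 was lower in Treg-like (13.2%) and 0 in NK-like cells (13.2%). Without the 1% of cells with the most member UMIs, 1 was higher in C1q-high macrophage-like (5.83% of all genes) and 0 lower in NK-like cells (3.04%). With classes from clusters, 2 were higher in CD8 T-like (5.78% of all genes), 1 in Treg-like (3.07%) and 1 in other T-like cells (4.6%). In NK-like cells 2 of 9 tested were lower (2.51%). Under the stricter marker rule 1 was lower in CD4 T-like cells (5.37% of all genes) and 0 were lower in NK-like cells (2.72%). Under the same rule 1 was higher in other T-like (5.29%), 1 in NK-like (6.92%) and 1 in DC-like cells (5.79%). At the lower fold tried, 7 were higher in all kept cells (12.9% of all genes), 1 in other T-like (8.24%), 7 in C1q-high macrophage-like (12.7%), 8 in C1q-low phagocyte-like (10.2%) and 4 in DC-like cells (6.93%), and 3 were lower in NK-like cells (4.03%). At a fold of 2, 1 was higher in each of CD8 T-like, Treg-like, C1q-low phagocyte-like and DC-like cells (3.22%, 2.04%, 2.18% and 2.61% of all genes) and 0 were lower in NK-like cells (1.48%). With at least 100 UMIs asked, 0 of 2 tested were lower in CD4 T-like (6.25% of all genes) and 0 of 5 in NK-like cells (1.89%). In DC-like cells 1 of 7 tested was higher (4.39%).

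Clusters gave no CD4 T-like and no C1q-low phagocyte-like class, and equal class weights apply to all kept cells only. Taking away the macrophage share and leaving out the top cell of each gene were chosen after seeing the data. No paired analysis was possible because each group is 1 library. Few UMIs limit the CD4 T-like values, with 8 to 10 in TMEM16F KO for the genes past the fold.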
